A study of Mus musculus with 8 samples.

Results

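Alcohol dehydrogenases, aldehyde dehydrogenases and aldo-keto reductases were examined in livers of mice lacking SIRT7, a histone deacetylase of the sirtuin family. Every gene was taken whose symbol begins with Adh, Aldh or Akr followed by a digit and for which at least 1 probe set is annotated to that gene alone, and the brightest such probe set stood for the gene. This gave 35 of the 12393 genes measured, namely 4 Adh, 17 Aldh and 14 Akr genes, read by 56 probe sets. The samples were 4 wild-type (WT) livers and 4 SIRT7 knockout (SIRT7 KO) livers, each hybridised as total RNA to 1 Affymetrix mouse array. No treatment separated the groups. The knockout is described as a mouse model of nonalcoholic steatohepatitis (NASH) that arises on chow, so loss of SIRT7 and the liver disease that goes with it cannot be told apart here. Age, sex, strain and litter of the array animals, and whether each array came from a separate animal, were not given in the sources used here, so p-values measure only the spread between these arrays.

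These 3 families handle small carbonyl compounds. Alcohol dehydrogenases oxidise alcohols, ethanol and retinol among them, to aldehydes, and aldehyde dehydrogenases oxidise the aldehydes further to acids, which in liver covers acetaldehyde, retinal, aldehydes from lipid peroxidation and intermediates of amino acid breakdown. Aldo-keto reductases mostly run the opposite way and reduce aldehydes and ketones with NADPH. Their AKR1C branch acts as hydroxysteroid dehydrogenases, and AKR1D1 is the 5β-reductase that shapes the steroid ring of bile acids.

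SIRT7 expression checked the labels. The Sirt7 probe set read 8.98, 8.97, 8.88 and 8.57 in WT arrays 1 to 4 and 4.73, 4.53, 4.40 and 4.90 in SIRT7 KO arrays 1 to 4, on the log2 scale in which all levels and differences below are given. All 4 SIRT7 KO arrays lay far below every WT array and near the lower quartile of all probe sets (4.56, with a median of 6.35). Array medians ran from 6.30 to 6.36, and correlations within a group were 0.989 or more.

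Liver identity was checked with marker genes. The 5 measured hepatocyte markers averaged 14.40 to 14.46 in WT and 14.35 to 14.38 in SIRT7 KO arrays, and none passed the test. These means did not overlap, and all 5 markers were negative, with a median difference of -0.015 and a lowest one of -0.17. Macrophage markers (7 genes) averaged 8.68 to 9.68 and 8.96 to 9.80, sinusoidal endothelium (5 genes) 7.93 to 8.19 and 8.14 to 8.40, and stellate cells (6 genes) 7.59 to 8.09 and 7.95 to 8.35. Among these 18 genes Lyve1 rose by 1.21 and Dcn by 0.41 (adjusted p = 0.0463 and 0.103), where 2.17% of all genes rose. Col1a1 was below the lower quartile. Differences were positive for 7 of 7 macrophage, 3 of 5 endothelial and 5 of 6 stellate markers, where 50.7% of all genes were negative. No macrophage marker passed, and 1 stellate marker was lower at an unadjusted p under 0.05. Cholangiocyte (4 genes, 4.89 to 4.95 and 4.85 to 4.99), adipose (3 genes, 4.16 to 4.30 and 4.09 to 4.30), adrenal (2 genes, 6.09 to 6.21 and 6.09 to 6.15) and gut markers (4 genes, 6.88 to 7.05 and 6.82 to 7.17) held no gene that passed, and Krt7, Adipoq, Lep and Vil1 lay below the lower quartile. In whole liver, fewer cells of a type and less RNA per cell cannot be told apart.

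The 1 gene that passed the test described below, Akr1c12, lies among AKR1C genes that stand side by side on mouse chromosome 13 in the order Akr1c14, Akr1c18, Akr1c13, Akr1c19, Akr1c12, Akr1c6, Akr1c20 and Akr1c21, with Akr1e1 of the AKR1E branch next to them. Akr1c12 and Akr1c13 encode closely related reductases, and the array itself cannot separate them everywhere, since 1 probe set is annotated to both. The bases upstream of their annotated starts are shown because Akr1c12 passed the test and Akr1c13 is its near copy (RefSeq, GRCm38.p6, 250 bases before each start, 5′ to 3′ on the gene's own strand). The window of Akr1c12 is on the minus strand at chr13:4279400-4279649, and that of Akr1c13 is on the plus strand at chr13:4190937-4191186. Capitals mark aligned bases at which the pair differ.
Akr1c12: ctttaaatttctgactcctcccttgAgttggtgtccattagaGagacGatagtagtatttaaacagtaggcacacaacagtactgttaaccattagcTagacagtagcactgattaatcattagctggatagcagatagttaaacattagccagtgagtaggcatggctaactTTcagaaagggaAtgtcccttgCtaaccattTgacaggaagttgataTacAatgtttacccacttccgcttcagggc
Akr1c13: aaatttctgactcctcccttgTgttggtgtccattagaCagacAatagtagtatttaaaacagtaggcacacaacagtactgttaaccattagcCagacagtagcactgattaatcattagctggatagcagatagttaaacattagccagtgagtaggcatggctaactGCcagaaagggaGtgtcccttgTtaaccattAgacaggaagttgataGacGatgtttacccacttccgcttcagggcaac

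Of 246 aligned bases in these windows 235 were identical and 11 differed, an identity of 95.5%, with 1 gap inside the alignment. The windows also repeated the letters CATTAG, counted on either strand, 4 times before Akr1c12 and 5 times before Akr1c13. Of 32851 windows of the same length before annotated starts, 6.36% held CATTAG at all, 3 held 4 or more (Akr1c12, Akr1c13 and Gm34098) and only that of Akr1c13 held 5. This repeat was searched for after the sequences had been seen, and it describes the letters of the windows and not a site. Neither window held any of 6 further motifs. Over the 33 windows of the 30 member genes with one, AGGTCA (nuclear receptor half-site) occurred in 7 (21.2% against 14.0% of all windows), CCAAT in 16 (48.5% against 33.8%), TTCNNNGAA (STAT) in 3 (9.09% against 7.02%), TGACNNNGC (antioxidant response element) in 3 (9.09% against 10.2%), GTTAAT (HNF1 half-site) in 2 (6.06% against 6.43%) and TGACGT (cyclic AMP response element core) in 0 (against 6.47%). Both strands were searched, and the matches are descriptions only.

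Across the 35 genes, 1 passed the test in SIRT7 KO livers, Akr1c12, which fell. A gene is said to have passed, or to have changed, risen or fallen, at a limma adjusted p under 0.15, the false discovery rate of 15% used in the study. The single call was 2.86% of the 35 genes, where 4.65% of all genes passed (2.48% lower, 2.17% higher). The share called was thus below that of all genes over both directions and near that in the lower direction. At an unadjusted p under 0.05, 7 of the 35 were lower (20.0%) and 1 was higher, where 8.72% of all genes were lower and 6.91% higher. The 4 SIRT7 KO arrays lay below all 4 WT arrays for 4 genes (11.4%, against 5.70% of all genes) and above them for 0 (against 4.10%). The median difference was -0.065 over the 35 genes and -0.0031 over all genes, and 24 of the 35 (68.6%, against 50.7% of all genes) were negative. Of the 35, 29 differed by less than 0.25, and 1 by more than 0.5.

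Of the 35 genes 26 lay above the median of all probe sets, and 73.1% of the 26 were negative with a median of -0.076. Among all genes that bright, 57.8% were negative, the median was -0.032, 4.03% fell, 13.4% were lower at an unadjusted p under 0.05 and 9.11% did not overlap in the lower direction, where the 26 gave 7 (26.9%) and 4 (15.4%) in the last 2 counts. The other 9, Akr1b10, Akr1c18, Akr1c21, Akr1cl, Aldh18a1, Aldh1a2, Aldh1a3, Aldh3a1 and Aldh3b1, lay below that median, differed by -0.13 to 0.15 and had adjusted p-values of 0.441 or more. For those dim genes the arrays can say little.

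**Figure D1:**
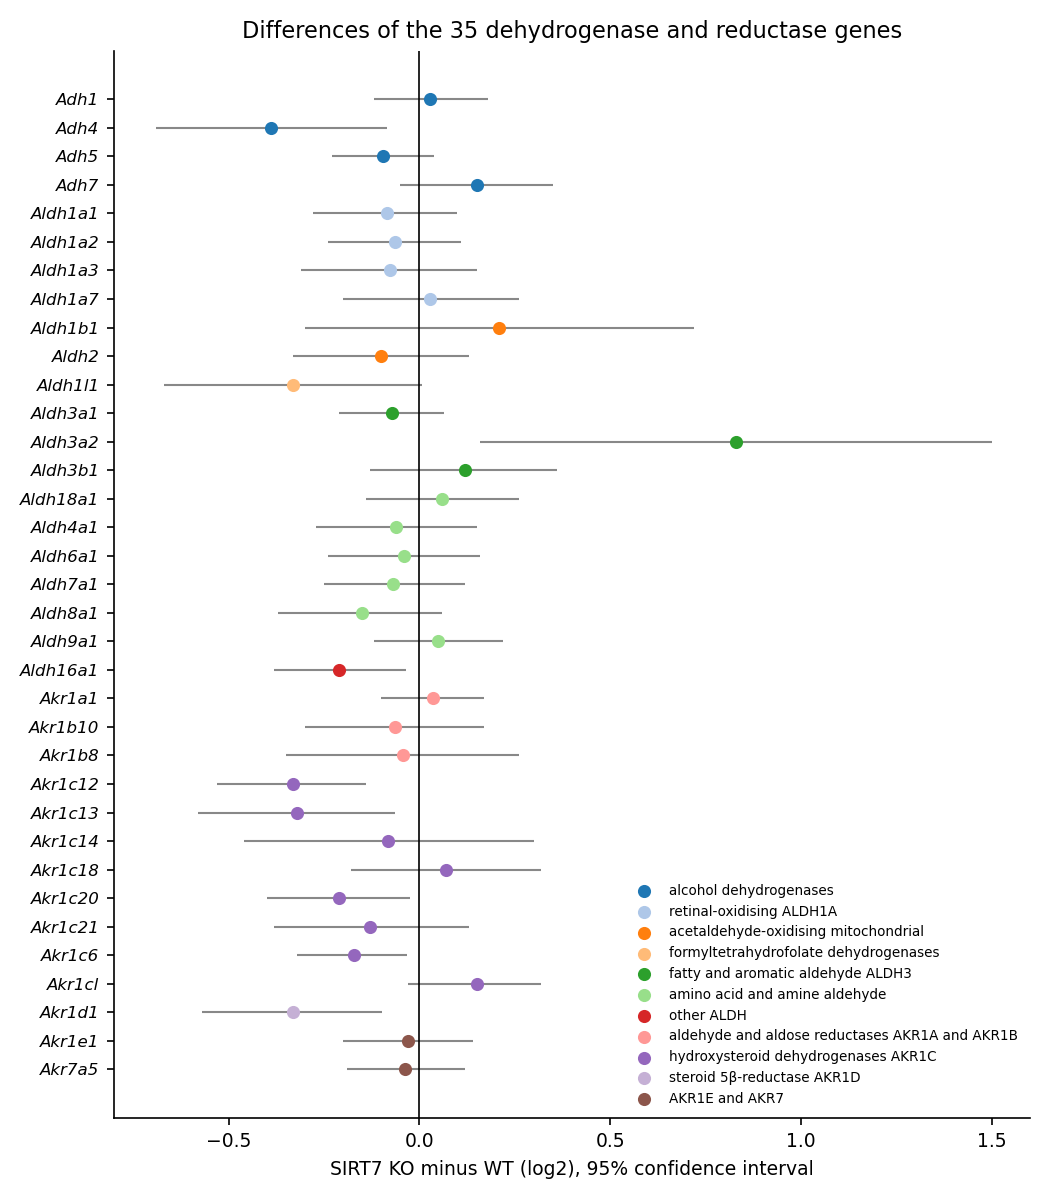
Difference between SIRT7 KO and WT livers (x axis, log2) for each of the 35 genes, grouped by role, with limma estimates from 4 arrays per group as points and as bars their 95% confidence intervals, not adjusted for the number of genes. The intervals of 7 genes lie wholly below 0 and that of Aldh3a2 wholly above it, and only Akr1c12 passed after adjustment.

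Akr1c12, an NAD-dependent reductase of steroids and other ketones, read 10.79, 10.76, 10.73 and 10.83 in WT arrays 1 to 4 and 10.49, 10.65, 10.33 and 10.31 in SIRT7 KO arrays 1 to 4. The WT arrays lay close together, and all 4 SIRT7 KO arrays were below them, by 0.082 at the nearest. Akr1c12 fell by 0.33 ± 0.086 (SE, n = 4 per group, 95% CI -0.53 to -0.14, adjusted p = 0.115), from 10.78 ± 0.044 to 10.44 ± 0.16 (SD), or 1.26-fold. The call lay near the threshold and was mostly lost with 1 array fewer, where fewer of all genes passed as well. Leaving out single arrays kept the difference between -0.40 and -0.29, but the adjusted p stayed under 0.15 only without SIRT7 KO array 2 (0.103) and rose to 0.247, 0.197, 0.166 and 0.175 without WT arrays 1 to 4 and to 0.175, 0.218 and 0.258 without SIRT7 KO arrays 1, 3 and 4.

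Akr1c13, its near copy, read 11.42, 11.25, 11.19 and 11.23 in WT and 11.00, 11.26, 10.75 and 10.81 in SIRT7 KO arrays. SIRT7 KO array 2 lay among the WT arrays and the other 3 below them, which is also the array that read highest of its group for Akr1c12. The difference of -0.32 ± 0.11 (SE, 95% CI -0.58 to -0.063) had an adjusted p of 0.232, and without SIRT7 KO array 2 it was -0.42 with an adjusted p of 0.125. The probe set annotated to both genes, which is no member because it names 2 symbols, read 12.28, 12.16, 12.14 and 12.33 in WT and 11.92, 12.14, 11.91 and 11.84 in SIRT7 KO arrays. It differed by -0.27 ± 0.084 (SE, 95% CI -0.46 to -0.084, adjusted p = 0.172), and again SIRT7 KO array 2 alone reached the WT range. Given how alike the pair are, the probe sets of the 2 genes may share targets and are not independent readings.

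Akr1c6, a hydroxysteroid dehydrogenase acting on estradiol, was the brightest AKR1C gene, at 14.30, 14.24, 14.17 and 14.18 in WT and 13.97, 14.08, 14.06 and 14.07 in SIRT7 KO arrays. The groups did not overlap and were 0.086 apart at the nearest, with SIRT7 KO array 1 set below the rest of its group. The difference was -0.17 ± 0.063 (SE, 95% CI -0.32 to -0.032, adjusted p = 0.239) and did not pass.

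Akr1c20, the neighbour of Akr1c6, read 11.95, 11.69, 11.80 and 11.90 in WT and 11.53, 11.55, 11.77 and 11.64 in SIRT7 KO arrays. The groups overlapped through SIRT7 KO array 3. The difference was -0.21 ± 0.084 (SE, 95% CI -0.40 to -0.024, adjusted p = 0.278), and a dimmer probe set of the gene differed by -0.41 (adjusted p = 0.273), so both pointed down and neither passed.

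**Figure D2:**
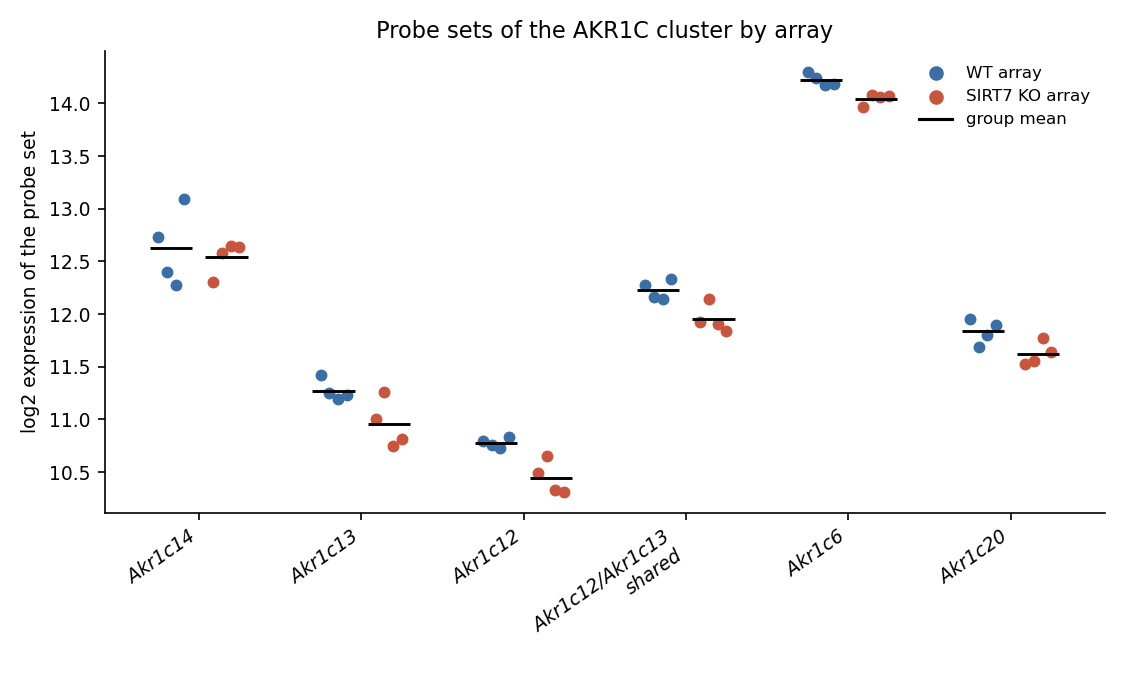
log2 expression (y axis) of the 5 bright AKR1C genes and of the probe set shared by Akr1c12 and Akr1c13, in the order of the genes on chromosome 13 with the shared probe set after Akr1c12, with 1 point per array and bars at the group means of 4 arrays. The SIRT7 KO mean lies below the WT mean in all 6, and the points do not overlap for Akr1c12 and Akr1c6.

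Of the 8 AKR1C genes in all, 1 fell (12.5%, against 2.48% of all genes) and 7 did not pass, with a range of -0.33 to 0.15. All 5 that were bright (Akr1c6, Akr1c12, Akr1c13, Akr1c14 and Akr1c20) were negative, from -0.33 to -0.083 with a median of -0.21. Among all genes that bright, 57.8% were negative, and Akr1c12 and Akr1c13 are not independent readings. Without these 5 the other 21 bright members had a median of -0.042, and 66.7% were negative. This contrast was not tested. Akr1c14, an NADPH-dependent steroid reductase, had the third widest spread of the 35 genes (pooled SD 0.28). Akr1c18, which inactivates progesterone, as well as Akr1c21 and Akr1cl, were dim in these livers.

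Akr1d1, the steroid 5β-reductase of bile acid synthesis, read 10.67, 10.31, 10.41 and 10.29 in WT and 10.08, 9.94, 10.29 and 10.04 in SIRT7 KO arrays. The groups stayed apart by 0.0048 only, SIRT7 KO array 3 lying just under the lowest WT array. The difference was -0.33 ± 0.11 (SE, 95% CI -0.57 to -0.097, adjusted p = 0.182), and the other probe set of the gene differed by -0.16 (adjusted p = 0.572). Of 15 other genes of bile acid synthesis, none passed in either direction, and the median difference was 0.045. At an unadjusted p under 0.05, 1 was lower (6.67%, against 8.72% of all genes) and 1 higher (against 6.91%). The SIRT7 KO arrays lay above all WT arrays for 2 of the 15 (against 4.10% of all genes) and below them for 0 (against 5.70%).

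None of the remaining reductases passed. Akr1a1, the aldehyde reductase that also serves ascorbate synthesis in mice, averaged 13.69 ± 0.044 in WT and 13.73 ± 0.061 in SIRT7 KO (SD, n = 4 arrays each). The difference was 0.036 (95% CI -0.10 to 0.17, adjusted p = 0.848), and its 4 probe sets spanned -0.015 to 0.036. Akr7a5, a reductase of aflatoxin dialdehyde and succinic semialdehyde, averaged 11.92 ± 0.083 and 11.89 ± 0.072, a difference of -0.037 (95% CI -0.19 to 0.12, adjusted p = 0.859). With Akr1b8 and Akr1b10, relatives of aldose reductase, and Akr1e1, differences ran from -0.063 to 0.036 for AKR1A and AKR1B. For AKR1E and AKR7 they ran from -0.037 to -0.03. The 95% intervals of Akr1b8 (-0.35 to 0.26) and of the dim Akr1b10 (-0.30 to 0.17) leave room for larger differences.

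None of the 4 alcohol dehydrogenases passed, and 1, Adh4, was lower at an unadjusted p under 0.05. Adh4, the class II enzyme, had the most negative difference of the 35 genes, with 11.90, 11.82, 11.52 and 11.29 in WT and 11.09, 11.35, 11.28 and 11.27 in SIRT7 KO arrays. WT array 4 lay among the SIRT7 KO arrays and the other 3 WT arrays above them. The difference was -0.39 ± 0.13 (SE, 95% CI -0.69 to -0.086, adjusted p = 0.22), and it reached -0.50 with an adjusted p of 0.0909 without WT array 4. Adh1, the main ethanol-oxidising enzyme of liver and the brightest of the 35 genes, averaged 14.30 ± 0.049 and 14.33 ± 0.074 (SD), a difference of 0.029 (95% CI -0.12 to 0.18, adjusted p = 0.882) that became -0.0071 without SIRT7 KO array 2. Adh5, the glutathione-dependent formaldehyde dehydrogenase, and Adh7, a retinol-oxidising enzyme best known from stomach, completed the group, in which differences ran from -0.39 to 0.15 and adjusted p-values from 0.22 to 0.882. On chromosome 3 the genes lie in the order Adh7, Adh1, Adh6a, Adh6b, Adh4 and Adh5, and Adh4 stands between genes that were not analysed here and Adh5.

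Aldh3a2, the fatty aldehyde dehydrogenase of the endoplasmic reticulum, was the only member with a difference beyond 0.5. It read 10.83, 10.42, 10.17 and 10.04 in WT and 11.81, 11.66, 10.48 and 10.83 in SIRT7 KO arrays. SIRT7 KO arrays 1 and 2 (mean 11.73) lay above every WT array, while arrays 3 and 4 (mean 10.65) lay inside the WT range or at its top. The difference of 0.83 ± 0.30 (SE, 95% CI 0.16 to 1.50, adjusted p = 0.236), or 1.78-fold, did not pass, and its pooled SD of 0.52 was the widest of the 35 genes. It was 1.07 with an adjusted p of 0.139 without SIRT7 KO array 3. Its relatives Aldh3a1 and Aldh3b1 were dim.

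Aldh16a1, a member of the family thought to lack catalytic activity in mammals, read 9.15, 9.13, 9.34 and 9.11 in WT and 8.95, 8.90, 9.09 and 8.97 in SIRT7 KO arrays. The SIRT7 KO arrays were all lower, by 0.022 at the nearest. The difference was -0.21 ± 0.076 (SE, 95% CI -0.38 to -0.034, adjusted p = 0.249) and did not pass.

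**Figure D3:**
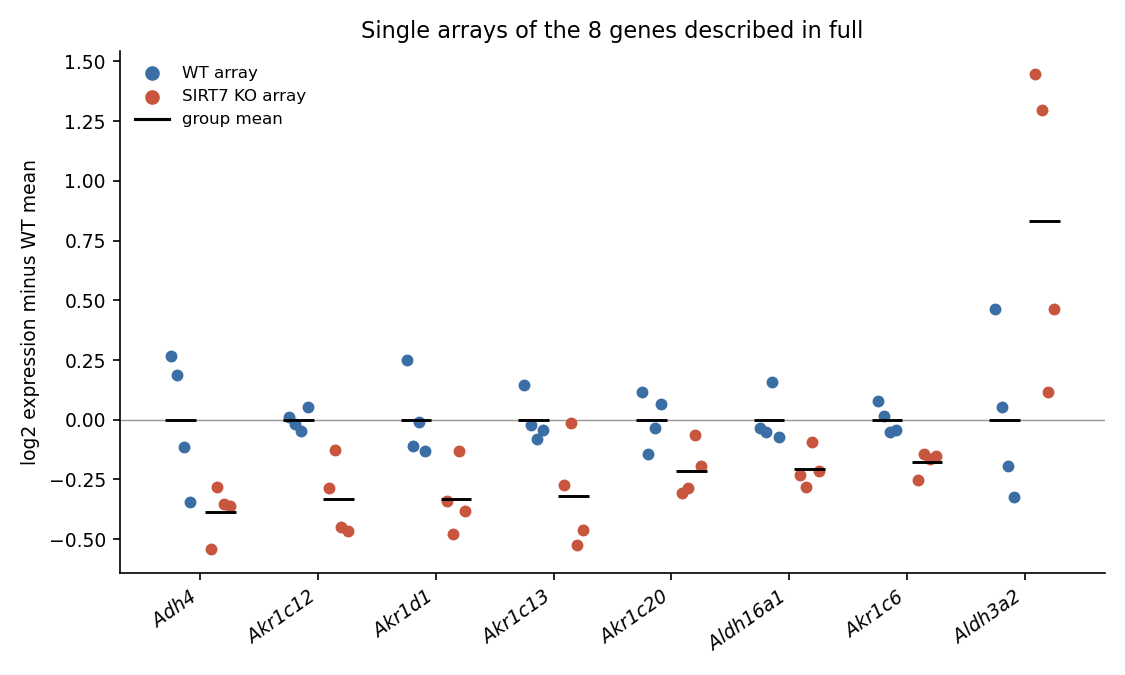
Each array's log2 expression minus the WT mean of the gene (y axis) for the 8 genes described array by array, with 1 point per array (4 of each genotype for every gene) and a bar at each group mean. SIRT7 KO arrays lie below all WT arrays for Akr1c12, Akr1d1, Aldh16a1 and Akr1c6, and the 4 SIRT7 KO arrays of Aldh3a2 fall into a higher and a lower pair.

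None of the enzymes that oxidise retinal, acetaldehyde and amino acid intermediates passed, and Aldh1a2, Aldh1a3 and Aldh18a1 among them were dim. Aldh1a1, a retinal dehydrogenase, averaged 14.02 ± 0.14 in WT and 13.94 ± 0.071 in SIRT7 KO (SD, n = 4 arrays each). The difference was -0.086 (95% CI -0.28 to 0.10, adjusted p = 0.7). With Aldh1a2, Aldh1a3 and Aldh1a7, differences in the ALDH1A group ran from -0.086 to 0.028, and the 95% intervals of all 4 lay between -0.31 and 0.26. Aldh2, the mitochondrial enzyme that clears acetaldehyde, averaged 13.14 ± 0.15 and 13.04 ± 0.15, a difference of -0.10 (95% CI -0.33 to 0.13, adjusted p = 0.708), and its 3 probe sets differed by -0.10 to -0.06. Its mitochondrial relative Aldh1b1 had the second widest spread among the 35 genes (pooled SD 0.39, SD 0.49 in WT and 0.25 in SIRT7 KO), and the 95% interval of its difference ran from -0.30 to 0.72.

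Aldh1l1, the formyltetrahydrofolate dehydrogenase of one-carbon metabolism, averaged 12.80 ± 0.28 and 12.47 ± 0.22, a difference of -0.33 ± 0.15 (SE, 95% CI -0.67 to 0.0077, adjusted p = 0.348), and its second probe set differed by -0.29 (adjusted p = 0.273). Aldh8a1, which acts in tryptophan breakdown and on retinal, averaged 12.61 ± 0.14 and 12.46 ± 0.13, a difference of -0.15 (95% CI -0.37 to 0.06, adjusted p = 0.512). Both were negative at every probe set, and neither passed. Aldh8a1 belongs with Aldh4a1 and Aldh18a1 (proline breakdown and synthesis), Aldh6a1 (valine), Aldh7a1 (lysine) and Aldh9a1 (carnitine synthesis), for which differences ran from -0.15 to 0.06, adjusted p-values from 0.512 to 0.88 and 95% intervals from -0.37 to 0.26.

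Several probe sets read 13 of the 35 genes, and their signs were alike in 10. In Akr1a1, Aldh1a3 and Aldh9a1 they differed, with no probe set of these beyond 0.097 in size. Of all 56 probe sets 1 fell (4.31% of all 22626 probe sets passed, 2.39% in the lower direction), 36 were negative (50.8% of all probe sets) and 10 were lower at an unadjusted p under 0.05 (8.43% of all probe sets). The probe set nearest to a call among the others was a dim one of Aldh7a1, at -0.39 with an adjusted p of 0.166, where the brightest probe set of that gene differed by -0.069, a comparison chosen after its values were seen. The gene table lists 44 protein-coding genes of these families, and Adh6a, Adh6b, Akr1b3, Akr1b7, Akr1c19, Aldh1l2, Aldh3b2, Aldh3b3 and Aldh5a1 were not analysed here.

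**Figure D4:**
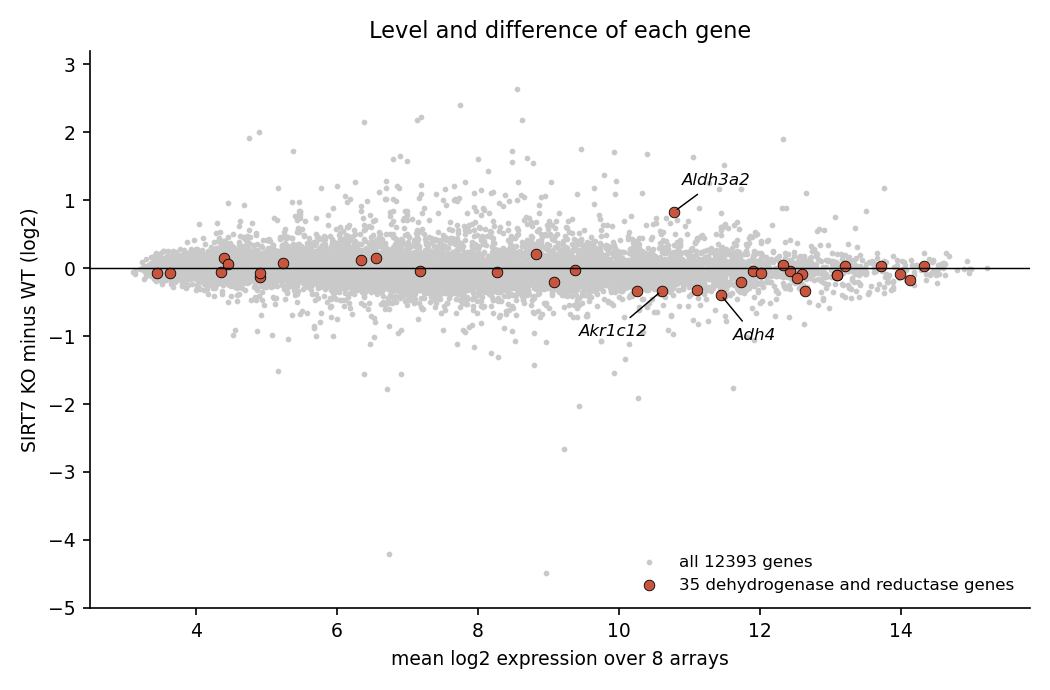
Difference between SIRT7 KO and WT livers (y axis, log2) against mean log2 expression over all 8 arrays (x axis) for all 12393 genes in grey and the 35 dehydrogenase and reductase genes in red. The 35 lie within the cloud of all genes, 26 of them above the median level of 6.35, between -0.39 for Adh4 and 0.83 for Aldh3a2.

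The single arrays differed in how the 35 genes sat. WT array 1 was above the WT mean for 29 of the 35 genes (median deviation 0.082), the other WT arrays for 12, 17 and 14, and the SIRT7 KO arrays for 14, 14, 13 and 10, with a median deviation of -0.12 in SIRT7 KO array 4. Spike-in control probe sets, which read no liver RNA, also differed, and their mean over 45 probe sets was 8.63 to 8.76 in WT and 8.39 to 8.61 in SIRT7 KO arrays, 42 of them were lower in SIRT7 KO and their median difference was -0.16. The GAPDH probe sets for the 3′ end minus those for the 5′ end, a sign of RNA integrity, read 0.16 to 0.29 in WT and -0.016 to 0.16 in SIRT7 KO arrays, and the actin probe sets 1.58 to 1.64 and 1.29 to 1.63. Their part in the differences of the 35 genes was not tested.

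Several members are held most strongly by hepatocytes near the central vein, so zonation markers were set beside them. Of 17 pericentral genes 4 fell, namely the drug-metabolising Cyp1a2 (-0.54), the glutamate transporter Slc1a2 (-0.93), Lect2 (-0.36) and the nuclear receptor gene Nr1i3 (-0.52), none rose, and the median was -0.18. All 17 lay above the median of all probe sets, where 4.03% of all genes fell and 57.8% were negative. Of the 17, 23.5% fell and 76.5% were negative. The mean of the list was 10.65 to 10.86 in WT and 10.50 to 10.63 in SIRT7 KO arrays, without overlap. Singly, 3 of the 17 genes did not overlap in the lower direction (17.6%, against 9.11% of all genes that bright). Of 16 periportal genes 3 fell (18.8%), the urea cycle gene Asl (-0.34), Hal of histidine breakdown (-0.77) and Pigr (-0.82). Cyp17a1 of steroid synthesis rose by 2.63. The periportal median was -0.038, with 9 genes negative and 7 positive. Among these 16 genes 4 did not overlap in the lower direction and 2 in the higher. The shares of all genes were 5.70% lower (9.11% of all genes above the median of all probe sets) and 4.10% higher. Of the 16, 15 lay above that median. The share that did not overlap in the lower direction was thus larger in the periportal than in the pericentral list. The mean of the periportal list, which includes the large rise of Cyp17a1, was 11.96 to 12.08 in WT and 12.00 to 12.14 in SIRT7 KO arrays. The part of zonation in the differences of Akr1c12 and the other members was not tested.

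Other enzymes of the same chemistry were read beside the 35 genes. Of 28 further enzymes of alcohols and aldehydes, 2 fell and 1 rose (10.7% in all, against 4.65% of all genes), with a median of 0.0011. Aox3, an aldehyde oxidase, fell by 0.59 ± 0.14 (SE, adjusted p = 0.093) from 13.28 to 12.69, and Dcxr, which reduces dicarbonyls and xylulose, fell by 0.58 ± 0.12 (adjusted p = 0.069) from 10.69 to 10.11. Cbr3, a carbonyl reductase, rose by 1.21 ± 0.23 (adjusted p = 0.058) from 5.39 to 6.60. Of 30 other genes of retinoid handling, none passed, and the median was -0.0071. At an unadjusted p under 0.05, 2 were lower (6.67%, against 8.72% of all genes) and 1 higher (against 6.91%).

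Several aldo-keto reductases and aldehyde dehydrogenases are known targets of the stress-responsive factor NRF2, and 30 other targets were therefore read beside them. Of these 3 rose and 2 fell (16.7% in all, against 4.65% of all genes), with a median of 0.15. Of the 30, 28 lay above the median of all probe sets, where 6.79% of all genes passed. In all 22 were positive and 26.7% negative, against 50.7% negative among all genes and 57.8% among all genes that bright. At an unadjusted p under 0.05, 6 were higher (against 6.91% of all genes) and 2 lower (6.67%, against 8.72%). Those that rose were Cbr3, Srxn1 (sulfiredoxin, 0.95 ± 0.19, adjusted p = 0.0653) and the glutathione transferase Gstm3 (1.68 ± 0.36, adjusted p = 0.0757). Those that fell were Gclm of glutathione synthesis (-0.30 ± 0.07, adjusted p = 0.0948) and the carboxylesterase Ces1g (-0.94 ± 0.16, adjusted p = 0.0476). None of the 35 dehydrogenase and reductase genes rose, 1 of them (Aldh3a2) being higher at an unadjusted p under 0.05. As only 2.17% of all genes rose, 0 of 35 says little. The part of NRF2 in the differences of the members was not tested.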

How the data were processed

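Total RNA of 4 WT and 4 SIRT7 KO liver samples was hybridised to Affymetrix GeneChip mouse arrays. The log2 expression values deposited by the authors were used as they stand. The study's methods name RMA and the submitters' processing notes GCRMA, with versions not given in the sources used here, so which of these made the values is unknown. Both normalize between arrays, so a shift shared by all genes would not be seen, and GCRMA draws dim probe sets together. Depth has no meaning for arrays, and their number limits the precision.

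After 64 control probe sets were left out, 22626 were tested with limma 3.58.1 (R 4.3.3; lmFit and eBayes on genotype, two-sided), with Benjamini-Hochberg adjustment over all of them and calls at an adjusted p under 0.15. Of these, 20380 name 1 gene in the platform annotation, which can be old, 691 several and 1555 none; only the first were named. The fit was tested on simulated data. Genes that passed, whose groups did not overlap or whose unadjusted p was under 0.05 were described array by array (8 genes), the brightest gene of each role by its means, and the other 20 by counts. Up to 4 called genes of each list were named. Members, lists and marker genes were chosen with earlier results of these data known, so no list was tested. Alternatives were another threshold, variance trend, array weights, quantile normalization, a filter on dim probe sets, the replicate number as a block, the mean of a gene's probe sets and each array left out in turn. Promoter windows came from RefSeq (GRCm38.p6) and were aligned with Biopython 1.88.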

Additional observations from a re-analysis of the deposited data

Results flagged for a closer look

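In 5 of 70 groups of 4 arrays, 1 array stood far from the other 3 by Dixon's criterion, which chance alone meets in about 1 of 20 groups. Akr1a1 read 13.63 in WT array 2 and 13.71 to 13.72 in the other WT arrays. Akr1c6 read 13.97 in SIRT7 KO array 1 and 14.06 to 14.08 in the others of its group, and this low array lay on the side away from WT. Akr1e1 read 9.22 in SIRT7 KO array 4 against 9.41 to 9.43. Aldh3b1, which was dim, read 5.98 in WT array 4 against 6.35 to 6.42, and Aldh8a1 read 12.39 in the same array against 12.66 to 12.69.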

How the results depend on the processing

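The number of the 35 genes that fell was 1, became 0 at an adjusted p under 0.05, 0 with the replicate block (Akr1c12 at an adjusted p of 0.191) and 3 with array quality weights (Adh4 at -0.44, Akr1c12 and Akr1d1 at -0.38), and ran from 0 to 2 with single arrays left out (2, Akr1c12 and Akr1c13, without SIRT7 KO array 2; 1, Adh4, without WT array 4). The number that rose was 0 and became 1 with the replicate block, Aldh3a2 at an adjusted p of 0.104, and ran from 0 to 1 with single arrays left out (1, Aldh3a2, without SIRT7 KO array 3). The cause was not tested. The median difference was negative in every setting, from -0.076 to -0.039 with arrays left out. Adh1 turned to -0.0071 without SIRT7 KO array 2. Small differences that did not pass also moved with single arrays left out, Aldh2 between -0.16 and -0.036, Aldh1a1 between -0.15 and -0.048 and Akr7a5 between -0.076 and -0.013. Over 15 settings and 225 values of single genes, 209 kept direction and side of the threshold, 9 lost the call, 6 gained it and 1 turned. All 9 losses were those of Akr1c12, the only gene with a call to lose, which thus lost it in 9 of its 15 settings. The 209 are mostly values of genes that had not passed to begin with, so they do not measure how firm the call is.

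The values showed no pairing of the arrays by the numbers 1 to 4 of the labels. Same-numbered deviations correlated at 0.255, -0.252, -0.163 and 0.145, and 0 of 4 WT arrays correlated best with their own number. Such correlations cannot exclude a pairing by litter or handling, so whether the arrays were paired is unknown. Over all genes the replicate block gave 196 higher and 172 lower calls against 269 and 307, and 57 and 37 passed at 0.05. Without WT array 1 it was 80 and 52, and without SIRT7 KO array 4 it was 96 and 61. Array weights gave 354 and 428. With 4 arrays per group, differences as small as those of most members could not be told from 0.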
